A study of Mus musculus with 20 samples.

Results

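The miRNAs described here are 4 mature names found in blood cells, mmu-miR-223-3p, mmu-miR-142a-3p, mmu-miR-142a-5p and mmu-miR-191-5p, read in mouse serum. The prefix mmu, for mouse, is left out below. They were taken by name from a table of 1915 mature mouse miRNAs, and each of the 4 had 1 row in that table. The table covers 20 serum libraries of female mice in 4 groups of 5: young normal and old normal mice, and young and old Ames dwarf mice. Young mice were 5 to 6 months old and old mice 21 to 22 months. All libraries, the normal ones included, carry the same strain label, the Ames dwarf line on a heterogeneous genetic background, and no treatment is given. Ames dwarf mice lack growth hormone, prolactin and thyroid-stimulating hormone, stay small and live long. Whether the 5 libraries of a group stand for 5 different animals is not said in the labels, and all p-values refer to the spread among libraries, which may be technical.

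A miRNA is cut from a hairpin in 2 steps, by Drosha and then Dicer, and the hairpin's 5p or 3p arm is loaded into an Argonaute protein. It finds its targets mainly through its seed, bases 2 to 8 from the 5′ end, so a shift of that end by even a single base gives another seed. miR-223 is made in the myeloid lineage, is abundant in neutrophils, monocytes and platelets, and in mice restrains the output and activation of granulocytes. miR-142 is expressed across blood cell lineages, and both of its arms are known to be functional. miR-191 is abundant in platelets and leukocytes but is also made in many other tissues, and it is transcribed together with its neighbour miR-425. In serum these miRNAs come from cells that released them in life or during clotting. Fewer releasing cells and less RNA released per cell cannot be told apart in such samples.

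The mature sequences are shown because the 4 names carry 4 different seeds, and because the reads of one hairpin did not start where the reference starts. They are RefSeq's sequences with positions on GRCm38.p6, 5′ to 3′, with the seed in capitals. All 4 lie on the plus strand: miR-223-3p at X:96242884-96242905, miR-142a-3p at chr11:87756903-87756925, miR-142a-5p at chr11:87756867-87756887 and miR-191-5p at chr9:108568325-108568347.
miR-223-3p: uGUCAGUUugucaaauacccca
miR-142a-3p: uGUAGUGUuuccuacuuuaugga
miR-142a-5p: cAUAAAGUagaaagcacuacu
miR-191-5p: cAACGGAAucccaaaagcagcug
No other mature miRNA among the 1679 in the RefSeq table had any of these 4 seeds. Of the 360 miRNAs that had enough reads to be tested, 311 were matched to that table.

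The hairpins sit in different kinds of transcript in the GENCODE M21 annotation of GRCm38. Mir223 (X:96242817-96242926) lies in an exon of F630028O10Rik, and Mir142 (chr11:87756864-87756927) in an intron of the long noncoding RNA gene Mir142hg. Mir142b is annotated on the opposite strand over Mir142. Mir191 (chr9:108568319-108568392) and Mir425 (chr9:108568777-108568861) lie 384 bases apart on the plus strand within the single exon of the long noncoding RNA 4833445I07Rik. An annotated miRNA gene on the other strand, Gm24083, overlaps Mir191.

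Both arms of Mir142 began at other bases in serum than in RefSeq. The hairpin is printed here with the 2 RefSeq arms in capitals, to show where the reads began.
Mir142 hairpin: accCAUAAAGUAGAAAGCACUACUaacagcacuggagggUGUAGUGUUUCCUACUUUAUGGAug
In the authors' deposited report, which pools all samples, the consensus of the 5p reads began 2 bases before the RefSeq start (chr11:87756865-87756884) and that of the 3p reads began 3 bases after it (chr11:87756906-87756927). These are the pooled forms, with bases 2 to 8 in capitals.
miR-142a-5p, pooled serum: cCCAUAAAguagaaagcacu
miR-142a-3p, pooled serum: aGUGUUUCcuacuuuauggaug
miR-191-5p, pooled serum: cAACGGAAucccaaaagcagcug
The shifted 5p form thus has CCAUAAA at bases 2 to 8, which in RefSeq is the seed of miR-142b, and the shifted 3p form has GUGUUUC, the seed of miR-12205-5p. miR-191-5p had the same start as in RefSeq. The pooled report assigned 774375 reads to the Mir142 hairpin, of which 758935 were from the 5p arm and 15437 from the 3p arm. It assigned 1043287 reads to Mir191, with 1042986 from the 5p arm and 301 from the 3p arm. The count table does not give the start of each read, so the share of shifted reads per library was not analysed here.

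The libraries held 1343137 to 4710263 counts when each name was counted once. Levels are given as CPM, counts scaled to a common library size with edgeR's TMM factors. Mature miRNAs of 20 to 23 bases are each counted as 1 read, so no scaling by length was applied. By mean CPM over the 20 libraries, miR-191-5p ranked 8th of all names at 22984 CPM, and miR-142a-5p ranked 9th at 15881 CPM. Each held a sizeable share of a library's counts, 1.17 to 4.04% for miR-191-5p and 0.946 to 1.93% for miR-142a-5p. miR-223-3p ranked 76th at 441 CPM and miR-142a-3p 85th at 321.9 CPM. The least-read library held 276 reads of miR-223-3p and 252 of miR-142a-3p, so counting error is small beside the spread between libraries for all 4 names.

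Among the 4 names, miR-191-5p was the only one to pass the test in any comparison: it was higher in old normal mice than in young normal or old dwarf mice. miR-223-3p and both arms of miR-142a did not pass in any of the comparisons. The tests are those of edgeR's quasi-likelihood fit over all 360 tested miRNAs, with Benjamini-Hochberg adjustment and a threshold of 0.05. A fold change is given as log2 with its standard error. For old dwarf against old normal mice, 1 of the 4 names was called, beside a background of 26.4% of all tested miRNAs called in either direction, 16.1% higher and 10.3% lower. For old against young normal mice, 1 of 4 was called, beside 15.6% of all tested miRNAs, 5% higher and 10.6% lower. Young dwarf and young normal mice gave no call among the 4 and 0% among all 360 (28 miRNAs at an unadjusted p under 0.05, and 6 called by DESeq2). Old against young dwarf mice gave none among the 4, beside 0.556% of all tested. The background shares show that calls were common in both comparisons that hold the old normal libraries. Those comparisons share these 5 libraries, so a high value there moves both.

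**Figure D1:**
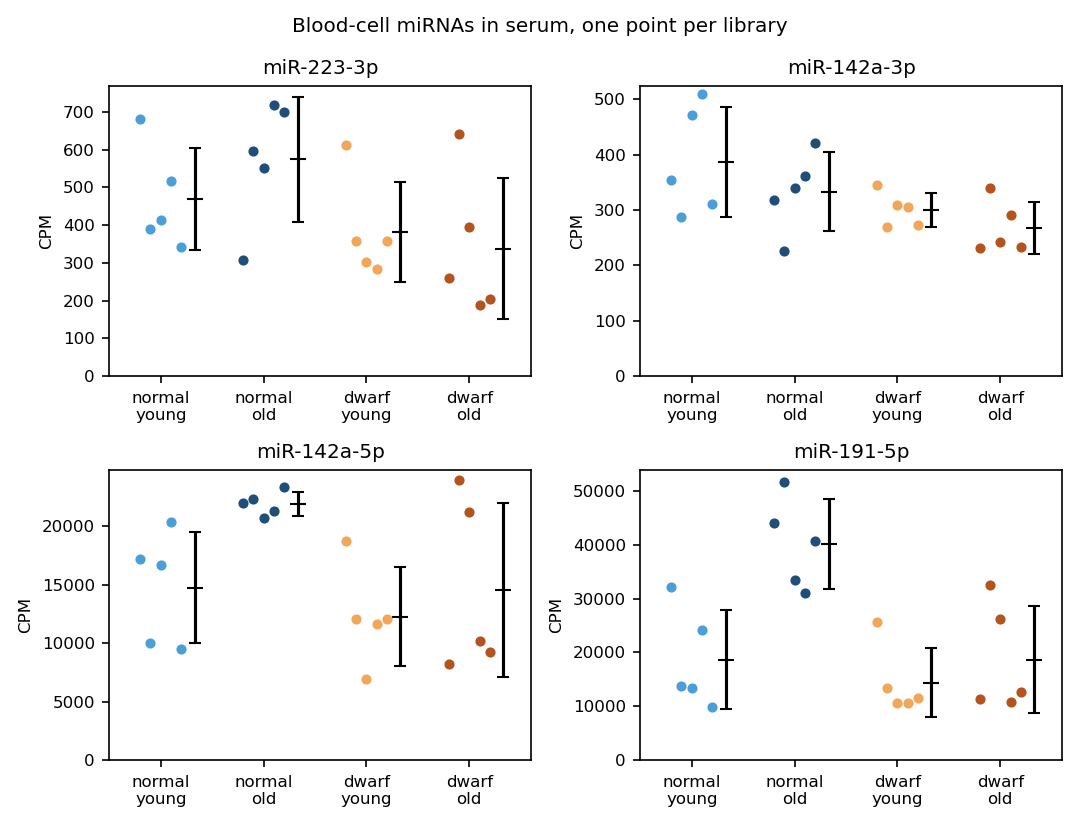
Each point is 1 serum library, and the vertical axis is CPM on a linear scale starting at 0. Bars beside the points are the mean ± SD of 5 libraries per group. The old normal libraries of miR-191-5p lie between 31002 and 51746 CPM and those of miR-142a-5p between 20681 and 23368 CPM, while the old dwarf libraries of both split into 2 high and 3 low points.

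miR-191-5p, the miRNA shared by platelets, leukocytes and other cells, stood at 32263, 13830, 13378, 24091 and 9886 CPM in young normal libraries 1 to 5. In old normal libraries it stood at 44115, 51746, 33426, 31002 and 40676 CPM. Nearly all old normal libraries were thus above the young normal ones, 4 of 5 above every one of them, with an overlap only between old normal library 4 and young normal library 1. The young dwarf libraries held 25621, 13381, 10662, 10649 and 11519 CPM, with library 1 far above the other 4. The old dwarf libraries held 11256, 32504, 26212, 10755 and 12711 CPM, with libraries 2 and 3 high and the rest low. Of these, 4 of 5 were below every old normal library, and library 2 was within their range.

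The group means of miR-191-5p were 40193 ± 8357 CPM in old normal (SD, n = 5), 18690 ± 9256 in young normal, 18688 ± 10017 in old dwarf and 14366 ± 6389 in young dwarf mice. The last 3 means lie within 1 SD of each other. miR-191-5p was lower in old dwarf than old normal mice by log2 -1.10 ± 0.37 (adjusted p 0.0337) and higher in old than in young normal mice by 1.10 ± 0.37 (adjusted p 0.0465). The difference was -0.38 ± 0.36 between the genotypes at the young age (adjusted p 0.748) and 0.38 ± 0.36 between the ages in dwarf mice (adjusted p 0.997). The 2 age effects were not shown to differ, since the interaction was -0.73 ± 0.51 (adjusted p 0.513). Only 2 of 360 miRNAs (0.556%) were called for that interaction, and none of the other 3 names was, with -0.47 ± 0.46 for miR-223-3p (adjusted p 0.585), 0.05 ± 0.29 for miR-142a-3p (adjusted p 0.934) and -0.33 ± 0.44 for miR-142a-5p (adjusted p 0.703).

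The calls of miR-191-5p lie close to the threshold. With 1 library left out at a time, the genotype difference in old mice kept an adjusted p under 0.05 in 11 of 20 fits, with log2 values from -1.40 to -0.92 and adjusted p from 0.00952 to 0.137. It missed without old normal libraries 1, 2, 4 or 5 (0.0627, 0.0865, 0.0544 and 0.0550), young dwarf libraries 2 or 3 (0.0647 and 0.0563), or old dwarf libraries 1, 4 or 5 (0.0888, 0.137 and 0.1198). The age difference in normal mice kept its call in 6 of 20 fits, those without young normal library 1 or 4, young dwarf library 1, or old dwarf library 1, 2 or 3, with log2 values from 0.92 to 1.38 and adjusted p from 0.0152 to 0.133. The direction of both differences was the same in all of these fits.

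A ratio used as a marker of red-cell content was lowest in old normal mice. This haemolysis index, the log2 ratio of the red-cell miRNA miR-451a to miR-23a-3p, averaged 4.30 ± 0.70 in old normal libraries (SD, n = 5), 5.45 ± 0.61 in young normal, 5.38 ± 0.44 in old dwarf and 5.397 ± 0.43 in young dwarf libraries. With the index as a term in the model, the miR-191-5p difference was -0.55 in old mice (adjusted p 0.465) and 0.48 with age in normal mice (adjusted p 0.589), and neither passed. Over all tested miRNAs, calls went from 95 to 0 between the old groups and from 56 to 1 with age in normal mice. Each loss of a call with the index given below is thus shared by nearly all called miRNAs. The index moves with the group labels, and its part in the result was not tested beyond this model. It rests on 2 miRNAs, and the wider erythroid list followed it only in part. Of 7 tested names, 4 were above 0 and 3 below in old dwarf against old normal mice (median 0.48). With age in normal mice 2 were above 0 and 5 below (median -0.35). miR-144-5p (0.63 ± 0.27 in old mice, -0.75 ± 0.27 with age in normal mice) and miR-16-5p (0.48 ± 0.21 and -0.35 ± 0.21) had the signs of miR-451a, without passing the threshold. miR-363-3p, another name on that list, was at -1.16 ± 0.51 in old mice (adjusted p 0.0885) and at 0.96 ± 0.50 with age in normal mice (adjusted p 0.154), the opposite sign to miR-451a. The summed level of the list was highest in old normal libraries, with a median of 440730 CPM against 357082 in young normal, 356462 in old dwarf and 248687 in young dwarf libraries. miR-451a averaged 18409 CPM in old normal libraries, so other names made up most of that sum.

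miR-142a-5p, the main arm of the pan-leukocyte miR-142, stood at 17168, 10052, 16666, 20360 and 9484 CPM in young normal libraries. In old normal libraries it stood at 22003, 22364, 20681, 21291 and 23368 CPM, a narrow band above every young normal library. The coefficient of variation was 4.69% in old normal libraries, 32.3% in young normal, 51.1% in old dwarf and 34.4% in young dwarf libraries. The young dwarf libraries held 18765, 12036, 6906, 11603 and 12077 CPM. The old dwarf libraries held 8203, 23975, 21221, 10150 and 9241 CPM, and again libraries 2 and 3 were high, at the level of old normal mice, and the other 3 low.

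The group means of miR-142a-5p were 21941 ± 1028 CPM in old normal (SD, n = 5), 14746 ± 4764 in young normal, 14558 ± 7436 in old dwarf and 12277 ± 4228 in young dwarf mice. The old and young normal libraries did not overlap, but how common that is among all tested miRNAs is not given here. The fitted difference between these groups, 0.57 ± 0.31, missed the threshold (adjusted p 0.166). So did that between old dwarf and old normal mice, at -0.59 ± 0.31 (adjusted p 0.140). The fit shares its spread over all 4 groups, and the old normal group is far less spread than the others. With only the groups compared in the fit, both differences also missed. They were 0.39 with age in normal mice (adjusted p 0.148) and -0.54 between old dwarf and old normal mice (adjusted p 0.146). In the main fit the difference was -0.26 ± 0.31 between the genotypes at the young age (adjusted p 0.792) and 0.25 ± 0.31 with age in dwarf mice (adjusted p 0.997). Without old dwarf library 2, the genotype difference in old mice was -0.84 (adjusted p 0.0408), and this was the only library whose removal gave a call.

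miR-142a-3p, the rarer arm here, stood at 354.3, 286.8, 472.3, 509.4 and 311.0 CPM in young normal and at 317.8, 225.7, 340.2, 360.7 and 421.5 CPM in old normal libraries. It stood at 345.8, 269.2, 309.0, 304.8 and 272.7 CPM in young dwarf and at 230.4, 339.4, 242.8, 290.7 and 233.5 CPM in old dwarf libraries. All 4 groups overlapped, with means of 386.8 ± 98.9, 333.2 ± 71.4, 300.3 ± 31.2 and 267.4 ± 47.0 CPM in the same order (SD, n = 5 each). It was the steadiest of the 4 names, with a highest library 2.26 times the lowest, against 5.23 times for miR-191-5p. The fitted differences were -0.37 ± 0.20 for dwarf against normal in young mice (adjusted p 0.619), -0.32 ± 0.20 in old mice (adjusted p 0.231), -0.21 ± 0.20 with age in normal mice (adjusted p 0.429) and -0.17 ± 0.20 with age in dwarf mice (adjusted p 0.997). With age in normal mice the 2 arms thus had fitted values of opposite sign, neither past the threshold. The 3p value there depends on scaling: it was -0.60 with library totals in place of TMM factors (adjusted p 0.0362), a setting that moves the median of all tested miRNAs from -0.0042 to -0.42.

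miR-223-3p, the myeloid and platelet miRNA, stood at 681.0, 391.0, 413.8, 516.8 and 342.0 CPM in young normal libraries. In old normal libraries it stood at 306.8, 595.6, 552.0, 717.5 and 700.6 CPM, with library 1 below the other 4 and below every young normal library. The young dwarf libraries held 612.9, 358.8, 303.5, 282.6 and 356.9 CPM, with library 1 apart from the rest. The old dwarf libraries held 259.5, 640.4, 394.9, 188.3 and 205.2 CPM, of which 3 were below all old normal libraries and library 2 was among them.

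The group means of miR-223-3p were 574.5 ± 165.1 CPM in old normal (SD, n = 5), 468.9 ± 134.6 in young normal, 337.7 ± 187.7 in old dwarf and 382.9 ± 132.8 in young dwarf mice. The fitted difference between old dwarf and old normal mice was -0.77 ± 0.33 (adjusted p 0.0818), and it passed only when old dwarf library 2 was left out (-1.13, adjusted p 0.0106). The others were -0.29 ± 0.33 between the genotypes at the young age (adjusted p 0.792), 0.29 ± 0.33 with age in normal mice (adjusted p 0.501) and -0.18 ± 0.33 with age in dwarf mice (adjusted p 0.997). The sign of the age value in normal mice depends on scaling, since it was -0.11 with library totals. Old dwarf library 2 was the highest of its group for all 4 names.

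The other arms of the same hairpins and the neighbouring Mir425 were read in the same libraries. All 4 mature names of the Mir191 and Mir425 hairpins were lower in old dwarf than old normal mice, by log2 -1.10 for miR-191-5p, -1.54 ± 0.46 for miR-191-3p (adjusted p 0.0203), -1.04 ± 0.34 for miR-425-5p (adjusted p 0.0314) and -1.09 ± 0.31 for miR-425-3p (adjusted p 0.0147). Among all tested miRNAs, 10.3% were called lower. The 4 names come from neighbouring hairpins, so their calls are not separate results. With age in normal mice, 3 of the 4 were higher: miR-191-5p, miR-191-3p by 1.57 ± 0.45 (adjusted p 0.0227) and miR-425-3p by 1.10 ± 0.31 (adjusted p 0.0198). miR-425-5p was at 0.71 ± 0.34 there (adjusted p 0.130), and 5% of all tested miRNAs were called higher. None of the 4 was called in the other comparisons. These calls also depend on the processing. With the haemolysis index in the model all were lost: in old mice miR-191-3p was at -1.43 (adjusted p 0.142), miR-425-5p at -0.83 (0.266) and miR-425-3p at -0.90 (0.186), and with age in normal mice miR-191-3p was at 1.43 (0.244) and miR-425-3p at 0.89 (0.260). In old mice, miR-191-3p also missed with only the groups compared in the fit (adjusted p 0.0701), miR-425-3p without the filter on low counts (0.0952) and miR-425-5p with the replicate block (0.0527). With age in normal mice, the miR-191-3p call was lost with library totals (adjusted p 0.0536), without the filter (0.0602) and with only the groups compared (0.0811). That of miR-425-3p was lost in the same settings, at 0.65 with library totals (adjusted p 0.0846), without the filter (0.132) and with only the groups compared (0.0630). The partners' sequences are given to show that they are different miRNAs with seeds of their own.
miR-425-5p: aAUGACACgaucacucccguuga
miR-191-3p: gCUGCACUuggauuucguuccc

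**Figure D2:**
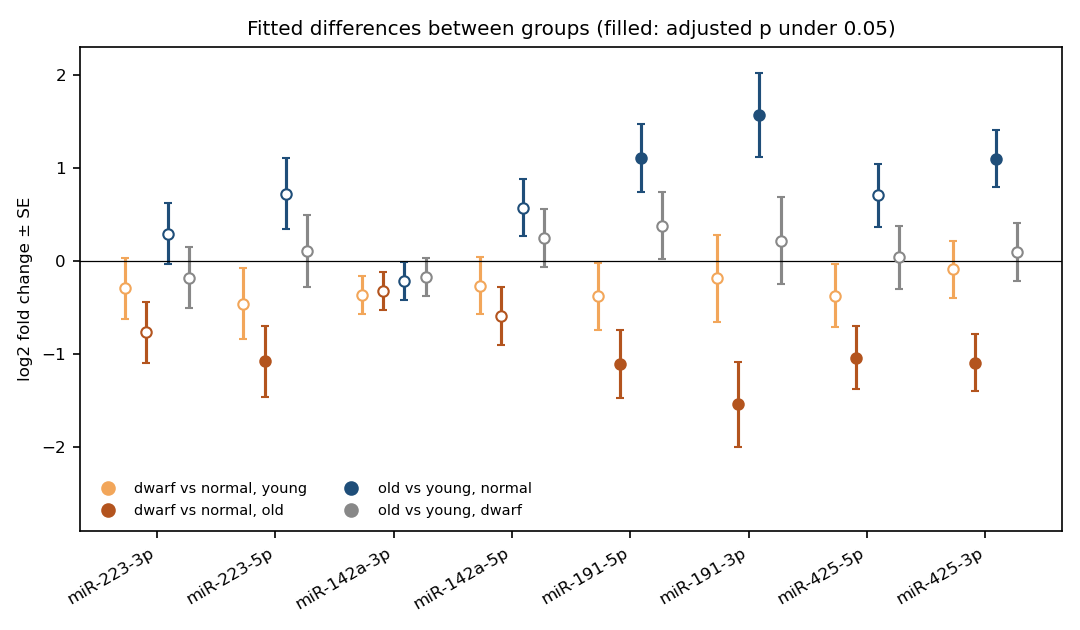
Fitted log2 fold changes with their standard errors for the 4 names, the other arms of their hairpins and the 2 arms of miR-425, in 4 comparisons. Filled points have an adjusted p under 0.05 (edgeR): 5 of these 8 names for old dwarf against old normal mice, and 3 of 8 for old against young normal mice. Among all 360 tested miRNAs, 26.4% and 15.6% were called in these comparisons, and the 8 names come from only a few hairpins.

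miR-425-3p had the clearest separation of these. It stood at 39.2, 27.8, 22.7, 20.2 and 27.5 CPM in old normal libraries, against 16.02, 14.7, 9.24, 14.4 and 9.87 in young normal and 8.08, 19.7, 10.7, 12.96 and 12.4 in old dwarf libraries. The old normal libraries overlapped neither of those groups, but how many of all tested miRNAs are alike in this is not given here. In young dwarf mice it was 12.1 ± 5.38 CPM (SD, n = 5). miR-425-5p averaged 1317.5 ± 492.5 CPM in old normal libraries, 808.1 ± 334.3 in young normal, 641.3 ± 287.0 in old dwarf and 624.1 ± 212.9 in young dwarf libraries.

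miR-191-3p, the rarely kept arm, was at 33.7, 12.5, 7.55, 4.90 and 9.61 CPM in old normal libraries, so library 1 was far above the rest. It averaged 4.59 ± 0.904 CPM in young normal, 4.56 ± 2.58 in old dwarf and 4.01 ± 0.926 in young dwarf libraries (SD, n = 5 each), and the least-read library held 4 reads. Without old normal library 1, the miR-191-3p differences were -0.86 in old mice (adjusted p 0.108) and 0.89 with age in normal mice (adjusted p 0.127). The difference in old mice also lost its call without old dwarf library 1, 4 or 5, and that with age without young normal library 3 or 5, with adjusted p up to 0.0699 in those fits. miR-425-5p in old mice kept its call in 14 of 20 such fits. It was at -0.78 without old normal library 1 (adjusted p 0.104), and was also lost without old normal library 2, young dwarf library 2, or old dwarf library 1, 4 or 5. The calls of miR-425-3p were each kept in 17 of 20 fits that left out 1 library, with adjusted p up to 0.0552 in old mice and up to 0.0712 with age in normal mice. They were lost in old mice without old normal library 1 or old dwarf library 1 or 5, and with age without young normal library 3 or 5 or old normal library 1.

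**Figure D3:**
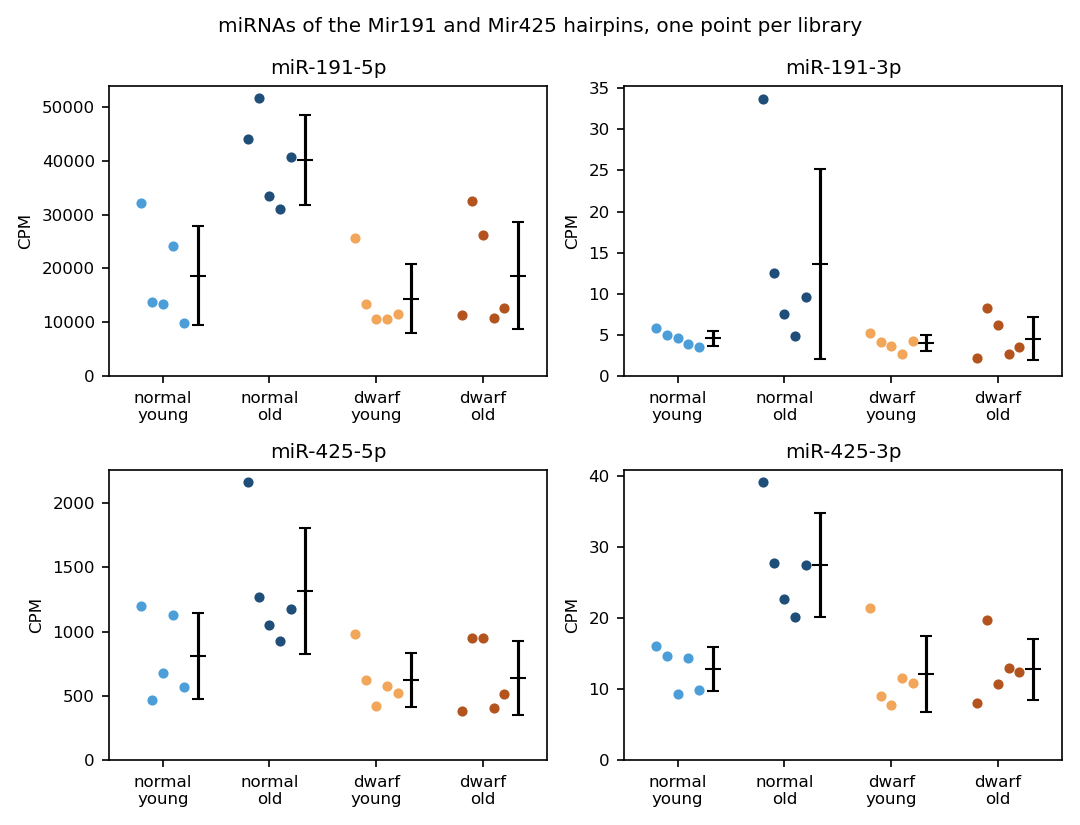
Levels in CPM of the 4 mature miRNAs of the Mir191 and Mir425 hairpins, 1 point per library, with mean ± SD of 5 libraries per group beside the points and linear axes from 0. Old normal library 1 holds 33.7 CPM of miR-191-3p and 2168 CPM of miR-425-5p, and the old normal libraries of miR-425-3p lie above all young normal and old dwarf ones. How many of all tested miRNAs separate in this way is not given here.

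miR-223-5p, the other arm of Mir223, averaged 29.4 ± 11.2 CPM in old normal libraries (SD, n = 5), 17.8 ± 6.40 in young normal, 13.7 ± 8.68 in old dwarf and 12.9 ± 3.29 in young dwarf libraries. It was lower in old dwarf than old normal mice by log2 -1.08 ± 0.39 (adjusted p 0.0459), where miR-223-3p missed the threshold. The call was kept in 5 of the 20 fits with 1 library left out, with adjusted p from 0.00590 to 0.155, and was lost when any of old normal libraries 2 to 5 was left out. It was also lost with library totals (adjusted p 0.0703), without the filter (0.132), with only the groups compared (0.0926) and with the haemolysis index, where the value was -0.39 (adjusted p 0.649). No comparison of the ratio of the arms passed, with 27.0 ± 3.94 reads of 3p per read of 5p in young normal libraries, 20.5 ± 4.10 in old normal, 26.2 ± 5.84 in old dwarf and 29.6 ± 4.65 in young dwarf libraries. Mir142b, on the strand opposite Mir142, had 7 reads in young normal libraries together, 6 in old normal, 1 in old dwarf and 3 in young dwarf, and was not tested.

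Ratios of 2 miRNAs within a library do not depend on how libraries are scaled, and they were compared for 12 pairs in 4 comparisons. None of these 48 tests passed Benjamini-Hochberg adjustment (smallest adjusted p 0.0952, 2-sided exact permutation tests of 5 against 5 libraries). The smallest p such a test can give is 0.00794, and 4 of the 48 reached it. The 5p to 3p ratio of miR-142a was one: 37.9 ± 6.81 in young normal libraries (SD, n = 5) and 68.7 ± 17.7 in old normal libraries, with no overlap. On the log2 scale the difference was 0.84 (exact p 0.00794, adjusted p 0.0952). It was 40.7 ± 11.8 in young dwarf and 53.6 ± 24.0 in old dwarf libraries, where libraries 2 and 3 were the high ones.

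**Figure D4:**
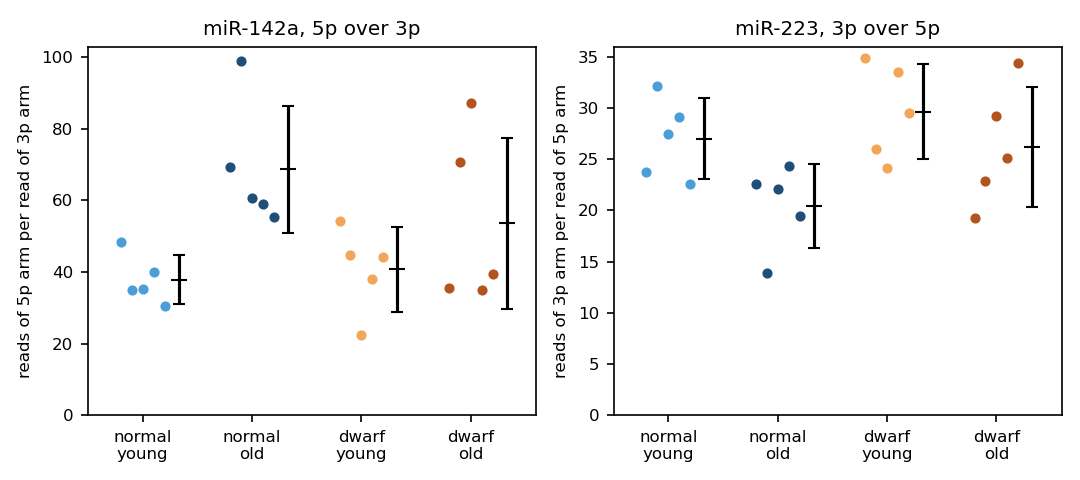
Reads of the more abundant arm per read of the other arm of the same hairpin, 1 point per library, with mean ± SD of 5 libraries per group and axes from 0. The miR-142a ratio runs from 22.4 to 99.1 over all libraries, and the old normal libraries lie above all young normal ones.

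Ratios against markers of other blood cells varied with the marker and the name, and none passed adjustment. Against miR-451a, the red-cell miRNA, the log2 ratio of miR-191-5p was 1.19 ± 0.83 in old normal and -0.84 ± 1.03 in old dwarf libraries (difference -2.03, exact p 0.00794, adjusted p 0.0952, n = 5 each). That of miR-142a-3p differed by -1.10 in the same comparison with the same exact p of 0.00794. miR-451a itself averaged 18409 ± 5950 CPM in old normal, 36605 ± 13087 in young normal, 30615 ± 6767 in old dwarf and 32903 ± 8664 in young dwarf libraries. Against miR-150-5p, the miRNA of mature lymphocytes, the log2 ratio of miR-191-5p averaged 4.11 ± 0.47 in young normal, 3.95 ± 0.66 in old normal, 4.22 ± 0.35 in old dwarf and 3.89 ± 0.37 in young dwarf libraries. Those means lie within the spread of the libraries (smallest exact p over the 4 comparisons 0.206, adjusted p 0.450). The other names were less flat against miR-150-5p. The ratio of miR-142a-3p differed by 1.21 between old dwarf and old normal (exact p 0.0476, adjusted p 0.176) and by -1.59 with age in normal libraries (exact p 0.0317, adjusted p 0.159). That of miR-223-3p differed by 0.65 (exact p 0.310, adjusted p 0.586) and -1.11 (exact p 0.0794, adjusted p 0.254). The ratio of miR-223-3p to miR-191-5p was the other to reach the smallest p, with -5.79 ± 0.24 in old dwarf and -5.20 ± 0.14 in young dwarf libraries (difference -0.59, exact p 0.00794, adjusted p 0.0952).

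The lists of blood-cell and tissue miRNAs place the 4 names among their kind. The myeloid list of 10 names holds miR-223-3p and both arms of miR-142a, and 8 of it were tested. Between the old groups, 1 of these 8 was called, miR-223-5p, and it was lower in dwarf mice, a share near the 10.3% of all tested miRNAs called lower. All 8 fitted values were below 0, with a median of -0.56 beside -0.06 over all tested miRNAs. The 8 include both arms of miR-223 and both arms of miR-142a, so they are not separate results. With age in normal mice none of the 8 was called, and the median was 0.42 beside -0.0042. The summed level of the list ran from 23735 to 26975 CPM in old normal libraries, 11237 to 23042 in young normal, 9370 to 21758 in young dwarf and 10270 to 27345 in old dwarf libraries. miR-142a-5p alone held 20681 to 23368 CPM in old normal libraries, so this sum mostly repeats that name. miR-511-5p, a miRNA from an intron of the macrophage gene Mrc1, was at -1.59 ± 0.62 in old mice and missed the threshold (adjusted p 0.0607).

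The platelet list of 14 names holds miR-223-3p and miR-191-5p, and 12 of it were tested. Between the old groups, 2 of the 12 were higher and 3 lower in dwarf mice, with a median of -0.25, beside 16.1% higher and 10.3% lower among all tested miRNAs. The lower ones included miR-191-5p and miR-222-3p (-1.31 ± 0.47, adjusted p 0.0444), whose call was kept in 8 of the 20 fits with 1 library left out and was lost with the haemolysis index (-0.54, adjusted p 0.605). The higher ones were both arms of miR-199a, a miRNA of platelets and of mesenchymal cells, at 2.11 ± 0.57 for the 3p arm (adjusted p 0.0121) and 2.31 ± 0.64 for the 5p arm (adjusted p 0.0133). With age in normal mice 1 was higher, miR-191-5p, and 2 were lower, the same arms of miR-199a, at -2.31 ± 0.58 (adjusted p 0.0125) and -2.23 ± 0.64 (adjusted p 0.0214). Beside them, 5% of all tested miRNAs were called higher and 10.6% lower. The age call of the 5p arm was lost without old normal library 1 or 3 or young normal library 2 or 5. With the haemolysis index neither arm of miR-199a passed in either comparison (adjusted p 0.213 to 0.263). The summed level ran from 51103 to 72782 CPM in old normal libraries, 25143 to 49164 in young normal, 25337 to 44403 in young dwarf and 25675 to 53270 in old dwarf libraries. miR-191-5p alone held 31002 to 51746 CPM in old normal libraries, so this sum largely repeats that name.

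Lymphocyte miRNAs were called in the same comparisons as miR-191-5p. Of 7 tested names on that list, 5 were lower in old dwarf than old normal mice (median -1.35), beside 10.3% of all tested miRNAs, and 5 were higher in old than in young normal mice (median 1.45), beside 5% of all tested. Their summed level ran from 3704 to 10347 CPM in old normal libraries, 3011 to 4558 in young normal, 2683 to 4235 in young dwarf and 2997 to 3910 in old dwarf libraries. With the haemolysis index, miR-150-5p and miR-342-3p lost both calls (adjusted p 0.0930 to 0.413), and miR-150-5p also lost its age call with only the groups compared (0.0559).

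On the erythroid list, 0 of 7 were called in old mice. miR-451a was close to the threshold there, at 0.73 ± 0.28 (adjusted p 0.0550). It passed in 4 of the 20 fits with 1 library left out and in 6 of 11 other alternatives: RLE factors, library totals, DESeq2, summed precursor rows, identical names counted once and the replicate block. miR-451a was lower with age in normal mice (-0.99 ± 0.28, adjusted p 0.0198), except without young normal library 3 (-0.78, adjusted p 0.0747) and with the haemolysis index, which contains it (-0.088, adjusted p 0.852). The list's summed level ran from 391556 to 583430 CPM in old normal libraries, 231356 to 529233 in young normal, 208211 to 394061 in young dwarf and 305316 to 571605 in old dwarf libraries. Hepatocyte and muscle lists, of which 5 names each were tested, had 0 called in both comparisons, but their fitted values leaned one way. All 5 tested muscle names were above 0 in old dwarf against old normal mice (median 1.24, beside -0.06 over all tested miRNAs). All 5 were below 0 with age in normal mice (median -1.51, beside -0.0042) and in dwarf mice (median -0.32, beside 0.019). All 5 tested hepatocyte names were above 0 in old dwarf against old normal mice (median 0.98). So were all 5 in young dwarf against young normal mice (median 1.37, beside -0.041 over all tested miRNAs). With age in normal mice 4 were above 0 and 1 below (median 0.079). Summed hepatocyte levels ran from 6756 to 31671 CPM and summed muscle levels from 321.3 to 7795 CPM over all libraries, and the muscle miRNA miR-206-3p was at 0 in the young normal, old normal and old dwarf groups. The part of these other cell types in the miR-191-5p result was not tested. In the other 2 pairwise comparisons, 0 names of any of the 6 lists were called.

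The miRNAs of other hairpins whose levels were most like those of each name are given here. The other arm of the same hairpin was left out of this ranking and follows below. The measure is Pearson's r of log2 CPM over the 20 libraries, also given after group means were taken out. These are descriptions, since the points share library scaling and abundant miRNAs. For miR-191-5p they were miR-151-3p (r 0.978, within groups 0.956), miR-423-3p (0.976 and 0.960) and miR-744-5p (0.949 and 0.952). For miR-142a-5p they were miR-3969 (0.985 and 0.997), miR-744-5p (0.957 and 0.935) and miR-423-5p (0.945 and 0.936). For miR-223-3p they were miR-222-3p (0.904 and 0.907), miR-361-3p (0.893 and 0.872) and miR-128-3p (0.892 and 0.897). For miR-142a-3p they were miR-1947-5p (0.805 and 0.762), miR-296-5p (0.789 and 0.657) and miR-30e-5p (0.777 and 0.776).

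The 2 arms of miR-142a were not among each other's closest, since r between them was 0.427 (0.490 within groups). miR-142a-5p was closer to miR-191-5p (0.895 and 0.843). The arms of miR-223 had an r of 0.907 (0.896 within groups), above that of miR-223-3p with miR-222-3p over the 20 libraries. miR-191-5p and miR-425-5p had one of 0.916 (0.881). miR-191-5p and the red-cell miR-451a ran opposite, with -0.759 (-0.558).

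miR-3969, which tracked miR-142a-5p so closely, is almost the same sequence. It is annotated on chromosome 5, and its pooled serum form was read 1 base before its RefSeq start. The pooled reads of both, and of an unnamed hairpin candidate on chromosome 7 in the authors' deposited report (chr7:97265053-97265096, minus strand), are set out below, with capitals at the bases that differ from miR-142a-5p.
miR-142a-5p, pooled serum: cccauaaaguagaaagcacu
miR-3969, pooled serum: cccCuaaaguagaaaUcacu
chromosome 7 candidate: GccauaaaguagaaaUcac
Counted from 1 at the 5′ end, miR-3969 differs from the pooled miR-142a-5p form by A4C and G16U, and 18 of 20 bases match. The candidate differs by C1G and G16U, and 17 of 19 bases match. The pooled report assigned 27473 reads to miR-3969, 0 of them from the other arm of its hairpin, and 1006 to the candidate, 56 of them from its other arm. Whether the miR-3969 reads are misread copies of miR-142a-5p was not tested, so they may not stand for a separate miRNA.

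Reads of miR-3969 stood in a narrow ratio to those of miR-142a-5p, and that ratio separated the ages. In young normal libraries there were 3.38, 3.39, 3.43, 3.36 and 3.32 reads of miR-3969 per 100 of miR-142a-5p, and in young dwarf libraries 3.36, 3.36, 3.24, 3.38 and 3.38. In old normal libraries there were 3.70, 4.04, 3.99, 4.01 and 3.91, and in old dwarf libraries 3.81, 3.996, 4.02, 4.13 and 3.77. All 10 old libraries were above all 10 young ones. The mean rose from 3.38 ± 0.0406% to 3.93 ± 0.140% with age in normal mice and from 3.35 ± 0.0584% to 3.95 ± 0.154% in dwarf mice (exact permutation p 0.00794 each, n = 5 against 5, adjusted over 4 comparisons 0.0159). The genotypes did not differ beyond their spread at the young (exact p 0.421) or the old age (exact p 0.905). This pair was chosen after its values were seen, so the test describes these libraries. It was adjusted apart from the 48 ratio tests above, in which the same exact p of 0.00794 gave an adjusted p of 0.0952. The labels give no sequencing run or date, so age and such a batch cannot be told apart here. The CPM level of miR-3969 missed the threshold in both comparisons, with log2 0.79 ± 0.32 with age in normal mice (adjusted p 0.0824) and -0.58 ± 0.32 between old dwarf and old normal mice (adjusted p 0.169). The age value passed with upper-quartile factors (0.95, adjusted p 0.0401) and with DESeq2 (0.74, adjusted p 0.0394), and the difference in old mice passed without old dwarf library 2 (-0.83, adjusted p 0.0493). Adding its reads to those of miR-142a-5p left miR-142a-5p at 0.58 with age in normal mice (adjusted p 0.158) and at -0.59 in old mice (adjusted p 0.139).

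**Figure D5:**
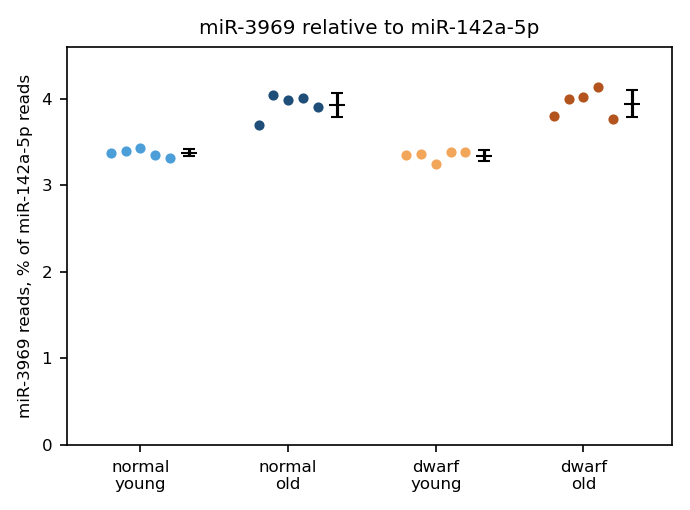
Reads of miR-3969 as a percentage of the reads of miR-142a-5p in the same library, 1 point per library, with mean ± SD of 5 libraries per group and a linear axis from 0. The 10 young libraries lie between 3.24 and 3.43% and the 10 old libraries between 3.70 and 4.13%.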

How the data were processed

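Serum small RNA of 20 samples was extracted with a column kit and made into TruSeq small RNA libraries, per the labels' protocols. The submitters' processing notes name Bowtie 0.12.8, bedtools, edgeR and GRCm38 (mm10), without their roles. The deposited table holds whole-number read counts per mature miRNA and precursor, per the file headers. It also holds RPM values made by the authors, which matched the count over the column sum within 0.005 and were not tested. The authors' deposited report on pooled samples gave consensus sequences and read numbers only, with other fields unused. The number of sample columns left out was 0.

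The table has 2241 rows for 1915 names. For the 115 names with several rows, the row with the highest total was used, since shared reads are listed in each. Counts were tested with edgeR 4.0.16 (limma 3.58.1, R 4.3.3): quasi-likelihood F test, a coefficient per group, TMM factors, filtering by group with a minimum count of 10 (360 miRNAs, at least 99.94% of reads per library), and Benjamini-Hochberg adjustment over the 360. The common biological coefficient of variation was 47.5%. Likeness used log2 CPM with a prior count of 2. Ratios used counts plus 1. Intervals are SD or SE over libraries, and amplified reads are not independent molecules. The procedure was tested on simulated counts. Named miRNAs were the 4 names, their other arms and neighbours, the 3 most correlated miRNAs of other hairpins for each name, and called or lowest-p members of the lists. The names and the 6 lists (myeloid, platelet, erythroid, lymphocyte, hepatocyte, muscle) were chosen with earlier results of these data known. Alternatives covered scaling, filter, tool, precursor rows, identical names, samples in the fit, a red-cell covariate, a replicate block and leaving out each library. Fragments of tRNA were not analysed here.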

Additional observations from a re-analysis of the deposited data

Results flagged for a closer look

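In 5 of 32 groups of 5 libraries, 1 library stood apart from the other 4 by Dixon's criterion, which chance meets in about 1 of 20 groups. Young dwarf library 1 was such a library for 3 miRNAs: 612.9 CPM of miR-223-3p, 25621 CPM of miR-191-5p and 21.3 CPM of miR-425-3p, each above the rest of its group. Old normal library 1 was such a library for 2 miRNAs of the Mir191 and Mir425 locus, with 33.7 CPM of miR-191-3p and 2168 CPM of miR-425-5p.

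The unnamed hairpin candidate on chromosome 7 that resembles miR-142a-5p held 950 reads of its main arm in the pooled report and enters no comparison above. It has no value per library. The printed sequence differs by 2 bases from miR-142a-5p, which held 758935 reads in the same report, and whether the 950 reads are misread copies of it was not tested.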

How the results depend on the processing

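The direction of the miR-191-5p differences between old dwarf and old normal mice and between old and young normal mice was the same under every alternative run. Its call in old mice was lost only with the haemolysis index in the model (-0.55) among the alternatives that used all libraries. Its call with age in normal mice was lost with that index (0.48), with only the groups compared in the fit (0.93, adjusted p 0.0518) and with the replicate block (1.15, adjusted p 0.0512). The index itself contains miR-451a, and old normal libraries had the lowest index.

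With the haemolysis index, the fitted values were -0.31 for miR-223-3p and 0.080 for miR-142a-3p with age in normal mice, and 0.075 and -0.24 for their interactions. With age in normal mice they were -0.081 for miR-223-5p and -0.089 for miR-222-3p, and miR-451a was at -0.072 in old mice. With library totals, miR-223-3p was at -0.11 and miR-142a-3p at -0.60 with age in normal mice, and miR-142a-5p at -0.22 and miR-191-5p at -0.079 with age in dwarf mice. Library totals moved the median of all tested miRNAs to 0.23 for old dwarf against old normal, -0.42 for old against young normal and -0.38 for old against young dwarf mice. The causes were not tested.

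Calls over all miRNAs for old dwarf against old normal mice were 95, and 63 with only the groups compared and 0 with the index. For old against young normal mice they were 56, and 106 with library totals (9 higher and 97 lower, against 18 and 38), 117 with DESeq2 (39 and 78), 34 with only the groups compared and 1 with the index. With upper-quartile factors they were 33 higher and 36 lower. For old against young dwarf mice they were 2, and 0 with library totals, with only the groups compared and with the block, and 1 with precursor rows summed. For young dwarf against young normal mice they were 0, and 1 without the filter, 6 with DESeq2 and 1 with the index. For the interaction they were 2, and 1 with RLE factors, 13 without the filter, 20 with DESeq2, and 0 with library totals, upper-quartile factors, summed rows, the index and the block.

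With 1 library left out, calls ran from 51 to 143 for old dwarf against old normal, 29 to 123 for old against young normal, 0 to 2 for old against young dwarf mice and 0 to 3 for the interaction. In the same fits miR-191-5p ran from -1.40 to -0.92 in old mice and 0.92 to 1.38 with age in normal mice. In old mice miR-223-3p ran from -1.13 to -0.60 and miR-142a-5p from -0.84 to -0.44. With age in dwarf mice miR-223-3p ran from -0.55 to 0.056 and miR-142a-5p from -0.017 to 0.45, and the interaction of miR-142a-3p from -0.084 to 0.15. The log2 ratio of miR-191-3p to miR-191-5p ran from -0.25 to 0.29 in old mice and -0.34 to 0.20 with age in normal mice. None of the 12 ratios tested together passed under any setting, and the block test of these ratios cannot go below an exact p of 0.0625.

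Same-numbered libraries did not deviate together in every pair. Correlations ran from -0.22 to 0.81 between the young groups and from -0.099 to 0.27 between the old groups. Between the ages they ran from -0.335 to 0.206 in normal and from -0.676 to 0.377 in dwarf mice. The value of 0.81 was that of library 1 in the young groups. Both of these libraries were the highest of their group for miR-191-5p and miR-223-3p. The numbers are taken as names only, and what same-numbered libraries share was not tested beyond the replicate block. Depth limits miR-191-3p and miR-142b, which had few reads per library.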
